A study of Mus musculus with 24 samples.

Results

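The tripartite motif (Trim) genes make a large family of ubiquitin ligases. Most of their proteins carry a RING finger, which recruits a ubiquitin-conjugating enzyme, followed by B-boxes and a coiled coil, and a C-terminal region that binds the target. Many members are known from interferon-induced defence against viruses and the control of inflammatory signalling, while others act in RNA regulation, transcription, protein quality control or cell division. Members were taken as all rows of the deposited count file whose gene name is Trim followed by a number and at most 1 letter, without Trim21 and Trim28. The rule found 66 of 55401 genes, out of 68 that match the name pattern.

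RNA was sequenced from mouse oocytes, 5 pooled per library, in 6 groups of 2 libraries. Polystyrene microplastics are abbreviated PSMPs in the labels. The groups were oocytes with PSMPs and overexpression of the histone deacetylase gene Hdac3 (PSMPs & OE-Hdac3), oocytes with the histone deacetylase inhibitor SAHA, oocytes exposed to PSMPs in culture (in vitro PSMPs), oocytes exposed in the animal (in vivo PSMPs), cultured controls (con-in vitro) and controls (con). No strain, age, dose, duration or oocyte stage is labelled. Which control belongs to SAHA and how the overexpressing oocytes were exposed is not labelled either, so SAHA was set against both controls and PSMPs & OE-Hdac3 against both exposures. Separate animals or cultures behind the libraries of a group are not labelled, so the p-values speak of the spread among these libraries, which may be technical. The pair of columns for in vivo PSMPs differed by less than sampling noise and was counted as 1 sample (n = 1) with the spread of the other groups, which left 11 libraries.

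Totals ran from 6.22 M to 35.6 M counts, and intervals and floors given here cover counting error only. Hdac3 stood at 228 to 336 CPM (counts scaled to library size with TMM factors) in PSMPs & OE-Hdac3 and at 7.17 to 37.4 CPM in the other libraries. The 10 oocyte markers were detected in every library, and their summed level was 9529 and 10351 CPM in con-in vitro, the lowest of the groups, against 18294 to 53414 CPM in the rest. In pooled oocytes, fewer cells of a type and less RNA per cell cannot be told apart. The summed level of 20 cumulus and granulosa cell markers was 173 CPM in in vivo PSMPs, where 4 of the 20 were at 0, and 35.8 to 110 CPM elsewhere, with 15 of 20 at 0 in both con libraries. Blood cell markers summed to at most 0.591 CPM. Between 20284 and 20957 genes were detected in PSMPs & OE-Hdac3, SAHA and in vitro PSMPs libraries and 17722 in the in vivo PSMPs library, against 11640 to 12843 in the controls.

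Of the 66 members, 44 passed the expression filter and were tested. Another 17 had counts but too few for the filter, namely Trim12a, Trim14, Trim16, Trim17, Trim30b, Trim34b, Trim43a, Trim43b, Trim46, Trim52, Trim54, Trim55, Trim56, Trim63, Trim66, Trim69 and Trim72. Trim7, Trim30c, Trim34a, Trim42 and Trim58 were at 0 in every library. The libraries held between 50 and 54 members in PSMPs & OE-Hdac3 and SAHA, 49 and 50 in in vitro PSMPs and 46 in in vivo PSMPs. They held 28 and 27 in con-in vitro, and 37 and 32 in con, so that exposed and treated oocytes held more members than either control. Among the 44 tested members, 13 (29.5%) were at 0 in the con-in vitro group and 7 (15.9%) in the con group, against 24.2% and 21% of all genes tested, while 4 (Trim29, Trim65, Trim67 and Trim80; 9.09%, against 8.16% of all genes) were at 0 in in vivo PSMPs. None was at 0 in PSMPs & OE-Hdac3, SAHA or in vitro PSMPs, where 1.48%, 2.59% and 1.98% of all genes were. A gene could pass the filter through 1 group, so tested members at 0 in a control had to hold counts elsewhere, and these counts are a description.

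**Figure D1:**
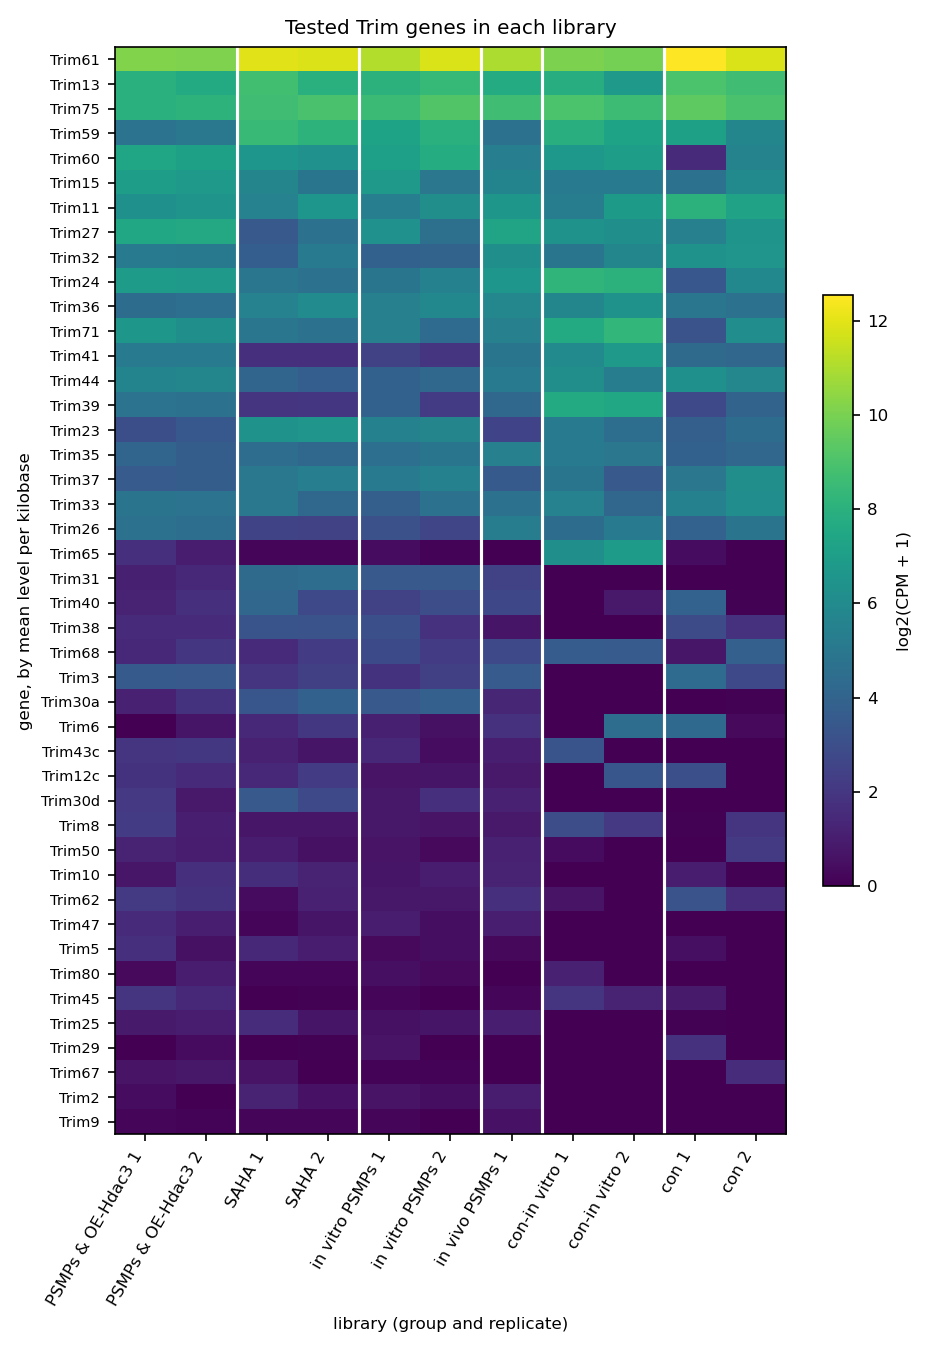
Level of each of the 44 tested Trim genes, as log2(CPM + 1), in each of the 11 libraries, with genes from top to bottom by mean level per kilobase and white lines between the 6 groups. Trim61 is the brightest row throughout. With TMM scaling, Trim39, Trim24, Trim65 and Trim71 are brightest in con-in vitro, and Trim31, Trim30a and Trim30d are dark in both controls.

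Several members lie in clusters. The upstream sequences of Trim30a, Trim30d and Trim31 are shown as those of genes at or near 0 in both controls with a group mean over 5 CPM. That of Trim60 and Trim61 is shown because Trim61 was the most abundant member. Trim2, Trim9 and Trim47 were also at 0 in both controls, with no group mean above 1.46 CPM. Their windows are not shown and hold none of the letters marked below in capitals. The Trim6, Trim34, Trim5, Trim12 and Trim30 genes form a cluster of 10 on chromosome 7 (mm10, 104218793 to 104507849), and Trim26, Trim15, Trim10, Trim40 and Trim31 lie together on chromosome 17 (36837134 to 36910214). Trim75, Trim60 and Trim61 lie within chromosome 8, 64980884 to 65018584. The windows are the 150 bases before the RefSeq start (GRCm38.p6, the assembly of mm10), on the minus strand for the genes of chromosomes 7 and 8 and on the plus strand for Trim31. Capitals mark the interferon-stimulated response element (GAAA, any 2 bases, GAAA) in Trim30a and Trim30d, and in Trim31 the letters TAATTG, bound by the oocyte factor NOBOX, and TATAAA, each read here on the opposite strand.
Trim30a, chr7:104465194-104465343: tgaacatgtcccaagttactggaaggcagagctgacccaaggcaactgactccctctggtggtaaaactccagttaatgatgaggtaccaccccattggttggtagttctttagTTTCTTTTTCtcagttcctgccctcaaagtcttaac
Trim30d, chr7:104507850-104507999: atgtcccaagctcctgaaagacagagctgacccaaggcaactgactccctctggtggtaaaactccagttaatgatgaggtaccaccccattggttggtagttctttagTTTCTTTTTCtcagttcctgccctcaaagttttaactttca
Trim31, chr17:36897980-36898129: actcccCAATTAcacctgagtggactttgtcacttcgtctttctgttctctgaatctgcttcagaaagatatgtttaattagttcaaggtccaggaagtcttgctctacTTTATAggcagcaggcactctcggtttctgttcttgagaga
Trim60 and Trim61, chr8:65018689-65018838: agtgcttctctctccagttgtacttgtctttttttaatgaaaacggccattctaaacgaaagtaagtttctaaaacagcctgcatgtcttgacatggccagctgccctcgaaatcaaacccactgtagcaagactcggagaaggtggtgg

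The Trim30a and Trim30d windows, laid on each other at their shared element, matched at 140 of 145 positions (96.6%). Another Trim30a window, chr7:104446126-104446275, is not shown and does not hold the element. Trim60 and Trim61 have the same RefSeq start and hence 1 window between them, and 66 bases of their exons overlap on the same strand. RefSeq windows were found for 51 members (65 windows). The response element, searched like the other motifs on both strands and without regard to overlap, stood in 4 of the 65 windows (6.15%), in Trim5, Trim12c, Trim30a and Trim30d, against 1.59% of 32851 windows of all genes. TATAAA stood in 4.62% of member windows against 7.57%, TAATTG in 3.08% against 4.05%, and CANNTG, the E-box, in 47.7% of both. The last bases of the Trim31 window lie within the deposited gene model of Trim31. A match is a description of the letters and not evidence of a binding site. Because the handling of reads that map to several genes is not given in the sources used here, counts of the near-identical Trim12, Trim30, Trim34 and Trim43 copies, and of Trim60 and Trim61, are uncertain.

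Trim61, a ligase with RING, B-box and coiled coil but no C-terminal domain, was the most abundant member per kilobase, at 29.8% to 74.0% of the family's summed CPM. Its level was 1145 and 1091 CPM in PSMPs & OE-Hdac3, 4018 and 3716 CPM in SAHA, 2158 and 3672 in in vitro PSMPs, 2025 in in vivo PSMPs, 1080 and 980 in con-in vitro, and 5950 and 3667 in con. The PSMPs & OE-Hdac3 and con-in vitro libraries were the lowest, and con replicate 1 was the highest. After Trim61, the order by mean level per kilobase over the groups was Trim13, Trim75, Trim59, Trim60, Trim15, Trim11, Trim27, Trim32 and Trim24. Trim13, an endoplasmic reticulum ligase of protein degradation, stood at 246 and 201 CPM in PSMPs & OE-Hdac3, 426 and 246 in SAHA, 267 and 334 in in vitro PSMPs, 209 in in vivo PSMPs, 227 and 106 in con-in vitro, and 506 and 419 in con. On the per kilobase scale Trim61 averaged 1327 CPM over the groups, Trim13 averaged 172 CPM and Trim75 averaged 125 CPM, and the remaining members of this order lay between 11.4 and 42.8 CPM.

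Trim75, an SPRY-domain neighbour of Trim61, stood at 247 and 274 CPM in PSMPs & OE-Hdac3, 417 and 482 in SAHA, 374 and 554 in in vitro PSMPs, 408 in in vivo PSMPs, 507 and 382 in con-in vitro, and 678 and 493 in con. With TMM scaling it was lowest in PSMPs & OE-Hdac3. By library totals it was lowest in con-in vitro, with 1708 of 6.22 M and 1397 of 6.4 M counts. PSMPs & OE-Hdac3 had 3800 of 9.81 M and 3008 of 7.03 M. Trim75 passed the test in no comparison. Trim60 stood at 164 and 137 CPM in PSMPs & OE-Hdac3, 95.3 and 79.7 in SAHA, 136 and 215 in in vitro PSMPs, 40.5 in in vivo PSMPs, and 102 and 125 in con-in vitro. In con it stood at 1.81 CPM in 1 library and 47.0 CPM in the other, and it too passed in no comparison. Of the counts on Trim60 and Trim61 together, Trim60 took 12.5% (95% exact binomial interval 12.1 to 13.0) and 11.2% (10.7 to 11.7) in PSMPs & OE-Hdac3, 2.32% and 2.10% in SAHA, 5.92% and 5.53% in in vitro PSMPs and 1.96% in in vivo PSMPs. It took 8.63% (7.78 to 9.55) and 11.3% (10.3 to 12.3) in con-in vitro, against 0.0304% (0.0227 to 0.0398) and 1.27% (1.21 to 1.33) in con. As a ratio, the replicates of con thus differed more in this share than those of any other group with 2 libraries, and the shares of PSMPs & OE-Hdac3 and con-in vitro lay above those of all other libraries.

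**Figure D2:**
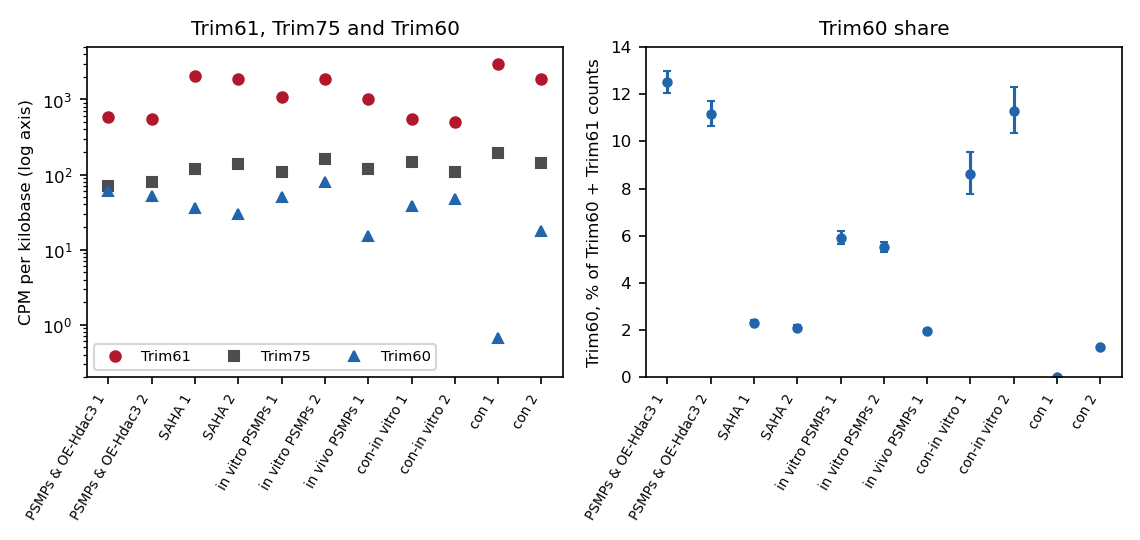
Left, level per kilobase (CPM, log axis) of the chromosome 8 neighbours Trim61, Trim75 and Trim60 in each library. Right, the share of Trim60 in the counts on Trim60 and Trim61 together, with 95% exact binomial intervals for counting error. Trim61 lies above Trim75 in every library, and Trim60 takes from 0.0304% of the counts in con replicate 1 to 12.5% in PSMPs & OE-Hdac3 replicate 1.

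Trim11, Trim27 and Trim15, also among the 10 highest per kilobase, passed in no comparison. Trim11, which acts on misfolded proteins, stood at 77.6 and 89.7 CPM in PSMPs & OE-Hdac3, 46.7 and 95 in SAHA, 40.7 and 73.5 in in vitro PSMPs, 99.9 in in vivo PSMPs, 39.2 and 113 in con-in vitro, and 266 and 148 in con. Trim27, which regulates protein sorting in endosomes, stood at 177 and 189 CPM in PSMPs & OE-Hdac3, 10.4 and 25.7 in SAHA, 80.2 and 23.3 in in vitro PSMPs, 158 in in vivo PSMPs, 86.1 and 75.1 in con-in vitro, and 43.5 and 88.8 in con. The mean of Trim27 was lowest in SAHA, without overlap with con-in vitro (log2 fold change -2.16 ± 0.67 SE, adjusted p = 0.0526 by edgeR's quasi-likelihood F test over all genes) or with con (-1.88 ± 0.67, adjusted p = 0.0661 by edgeR). Trim15 stood at 127 and 109 CPM in PSMPs & OE-Hdac3, 50.8 and 28.3 in SAHA, 106 and 30.3 in in vitro PSMPs, 48.9 in in vivo PSMPs, 34.7 and 33.3 in con-in vitro, and 24.8 and 62.1 in con. Its highest values were in PSMPs & OE-Hdac3, with in vitro PSMPs replicate 1 close to them.

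Exposure in the animal was compared with con to ask which members differed in oocytes of exposed mice. Only 1 of 44 members, Trim31, rose, and none fell (2.27% of members called, against 4.88% of all 16736 genes tested, 4.59% higher and 0.287% lower). Trim31, a ligase that acts on the antiviral adaptor MAVS and on the NLRP3 inflammasome in macrophages, had 176 counts or 4.54 CPM in in vivo PSMPs and 0 counts in both con libraries. Set against a floor of 3 counts over the con group, it was at least 102-fold higher in in vivo PSMPs (adjusted p = 0.0463 by edgeR). Trim30a, interferon-inducible in mouse, and its near copy Trim30d did not pass, at 1.55 CPM in exposed oocytes against 0 and 0.0515 CPM in con for Trim30a (adjusted p = 0.0641 by edgeR), and 1.19 CPM against 0 and 0 for Trim30d (adjusted p = 0.0595 by edgeR). Beside these low levels stands the higher sum of cumulus and granulosa markers in in vivo PSMPs, and its part in them was not tested. The median log2 fold change was -0.23 over the tested members and 0.25 over all genes. The number of members called was 0 without any 1 of the in vitro PSMPs, SAHA or PSMPs & OE-Hdac3 libraries, 5 without either con-in vitro library, 8 without con replicate 1 and 11 without con replicate 2. It was 13 with the in vivo PSMPs columns as 2 libraries, and 0 with only the groups compared in the fit, where Trim31 had an adjusted p of 0.618.

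Exposure in culture was compared with con-in vitro, and here 5 members rose and 6 fell (25% of members, against 15.4% of all genes, 8.57% higher and 6.78% lower). The members that rose were Trim31, Trim30a, Trim38, Trim3 and Trim61. Those that fell were Trim41, Trim39, Trim65, Trim24, Trim71 and Trim44. The median log2 fold change was 0.34 over the members, or 0 with the members at 0 in a group set at their bound, and 0.71 over all genes. Scaled by library totals, 9 members rose and 3 fell, and the median over all genes moved to 1.70.

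Of the members that rose, 4 were at 0 in both con-in vitro libraries, so that their folds are bounds against 3 counts over that group. Trim31 stood at 10.2 and 10.3 CPM in in vitro PSMPs and was at least 24.0-fold higher (adjusted p = 0.014 by edgeR). Trim30a, which promotes breakdown of the NF-kappaB pathway adaptors TAB2 and TAB3, stood at 10.3 and 13.3 CPM and was at least 27.7-fold higher (adjusted p = 0.0187 by edgeR). Trim38, which restrains the same inflammatory pathway, stood at 7.30 and 2.42 CPM and was at least 11.4-fold higher, and Trim3, an NHL-domain ligase studied in neurons, stood at 2.59 and 4.12 CPM and was at least 7.87-fold higher. Trim38 and Trim3 were not absent from all controls, since con held 6.43 and 2.42 CPM of Trim38 and 19.7 and 5.75 CPM of Trim3. Trim61 was 2915 ± 1071 CPM in in vitro PSMPs, against 1030 ± 71.1 CPM in con-in vitro (SD, n = 2 each), a log2 fold change of 1.5 ± 0.35 (adjusted p = 0.0214 by edgeR). Of the 10 oocyte markers, 6 were also higher in exposed than in control oocytes here and none lower, and their part in the rise of Trim61 was not tested.

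**Figure D3:**
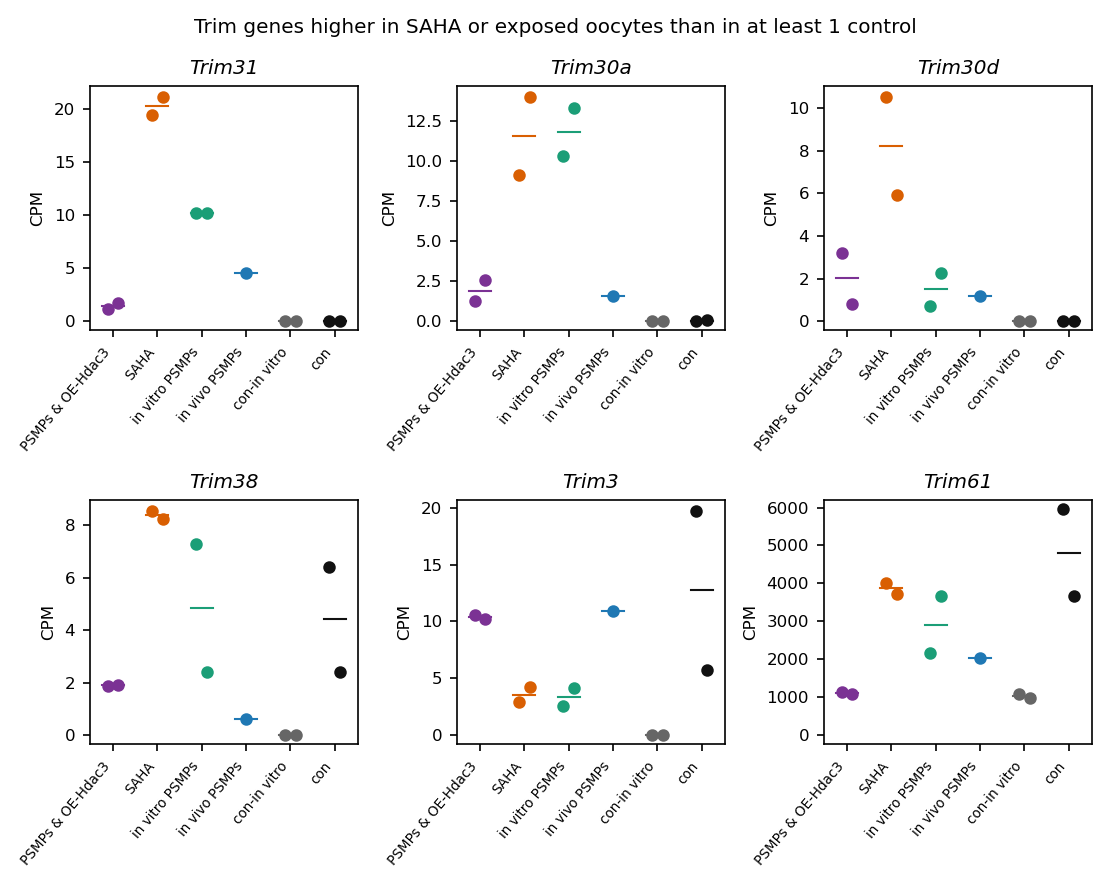
Level (CPM) of 6 Trim genes, with 1 point per library and a line at the group mean. Trim31, Trim30a and Trim30d are at 0 or a few counts in con-in vitro and con, while Trim38, Trim3 and Trim61 are low in con-in vitro but not in con.

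The members that fell were high in con-in vitro. Trim41, an SPRY-domain ligase, stood at 4.30 and 2.75 CPM in in vitro PSMPs, against 60.8 and 104 CPM in con-in vitro (log2 -4.55 ± 0.62, adjusted p = 0.00155 by edgeR). Trim39, an inhibitor of the anaphase-promoting complex, stood at 14.1 and 3.72 CPM in in vitro PSMPs, against 202 and 180 CPM in con-in vitro (log2 -4.42 ± 0.76, adjusted p = 0.00537 by edgeR). Trim65, a ligase for the RNA sensor MDA5, stood at 0.324 and 0.0808 CPM, 5 counts in all, against 74.2 and 116 CPM in con-in vitro (log2 -8.83 ± 1.69, adjusted p = 0.009 by edgeR). Its exons share 225 bases with those of Trim47, which was at 0 in con-in vitro. For these genes every con-in vitro library was more than an order of magnitude above the mean of in vitro PSMPs. Trim24, a PHD-bromodomain reader of histone H3 and ligase for p53, stood at 28.0 and 44.8 CPM in in vitro PSMPs, against 295 and 262 CPM in con-in vitro. Trim71, an NHL-domain protein that represses target RNAs in stem cells, stood at 42.7 and 20.0 CPM, against 204 and 318 CPM in con-in vitro. Trim44, a member without RING finger, stood at 13.7 and 17.7 CPM, against 71.5 and 38.0 CPM in con-in vitro. Their log2 fold changes were -2.93 ± 0.73 for Trim24, -3.06 ± 0.87 for Trim71 and -1.80 ± 0.50 for Trim44, and the groups did not overlap.

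Trim41 and Trim39 passed whichever library was left out. The other 9 lost the call without at least 1 library, with adjusted p over the alternatives up to 0.227 (Trim71), and the count was 3 and 2 without in vitro PSMPs replicates 1 and 2, 4 without either SAHA library, and 6 without either PSMPs & OE-Hdac3 library or con-in vitro replicate 2. With library totals, the calls of Trim44, Trim24 and Trim71 were lost at log2 -0.82, -1.98 and -2.02.

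SAHA was compared with con-in vitro, where 6 members rose and 7 fell (29.5% of members, against 19.8% of all genes, 11.7% higher and 8.14% lower). Trim61, Trim31, Trim38, Trim30a, Trim3 and Trim30d rose. Trim41, Trim39, Trim65, Trim24, Trim44, Trim71 and Trim26 fell. This comparison shares its con-in vitro libraries with the one on exposure in culture, so the 2 sets of values stand side by side here and their likeness was not tested. The median log2 fold change was 0.12 over the members, or 0 with members at 0 set at their bound, and 0.66 over all genes, and library totals gave 9 higher and 4 lower.

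Of the 6 that rose, 5 were at 0 in both con-in vitro libraries. Trim31 stood at 19.5 and 21.2 CPM in SAHA and was at least 47.6-fold higher than in con-in vitro (adjusted p = 0.00808 by edgeR). Trim30a stood at 9.11 and 14 CPM (at least 27.1-fold), Trim30d at 10.5 and 5.91 CPM (at least 19.3-fold), Trim38 at 8.54 and 8.25 CPM (at least 19.7-fold) and Trim3 at 2.89 and 4.21 CPM (at least 8.31-fold). Each SAHA library thus held counts of genes that neither con-in vitro library held. Trim61 averaged 3867 ± 214 CPM in SAHA, against 1030 ± 71.1 CPM in con-in vitro (log2 1.91 ± 0.35, adjusted p = 0.00666 by edgeR). Here 8 of the 10 oocyte markers were higher in SAHA and none lower.

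Among those that fell, Trim41 stood at 2.32 and 2.33 CPM in SAHA (log2 -5.15 ± 0.64, adjusted p = 0.000815 by edgeR), the smallest adjusted p of any member. Trim39 stood at 2.72 and 3.01 CPM (log2 -6.05 ± 0.82), Trim65 at 0.113 and 0.114 CPM (log2 -9.63 ± 1.74), Trim24 at 29.8 and 24.8 CPM (log2 -3.35 ± 0.74) and Trim71 at 29.3 and 25.1 CPM (log2 -3.26 ± 0.88). Trim44 stood at 15.9 and 12.6 CPM (log2 -1.94 ± 0.51). Trim26, a ligase reported to act on IRF3 and TBK1, stood at 4.98 and 4.44 CPM in SAHA, against 20.8 and 35.2 CPM in con-in vitro (log2 -2.57 ± 0.69). No SAHA library overlapped a con-in vitro library for any of the 7, genes already called on these same libraries. Trim41, Trim39 and Trim61 passed whichever library was left out, while the count was 3 without either SAHA library, 8 without either PSMPs & OE-Hdac3 library and 21 without either con library. Library totals ended the calls of Trim44 (log2 -1.21), Trim71 (-2.56) and Trim26 (-1.87).

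**Figure D4:**
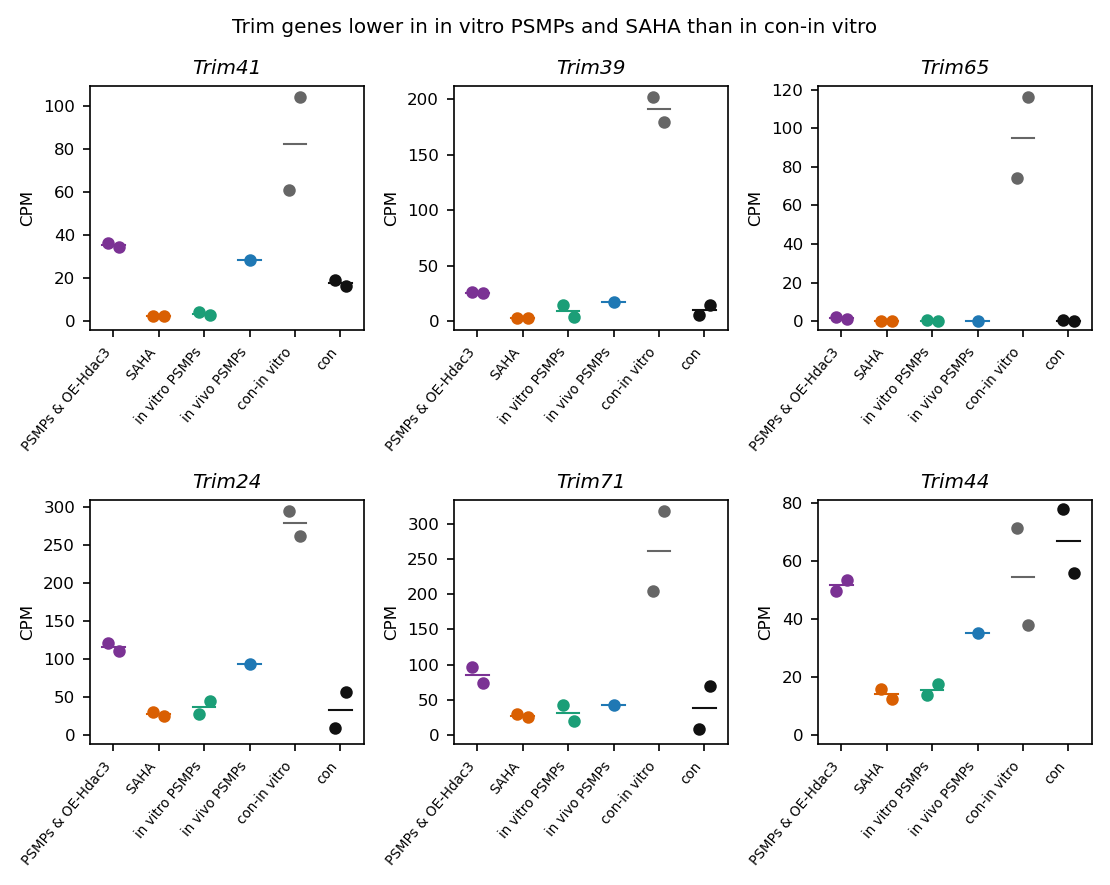
Level (CPM) of 6 Trim genes, with 1 point per library and a line at the group mean. For Trim41, Trim39, Trim65, Trim24 and Trim71 both con-in vitro points lie above every other library, whereas Trim44 is as high in con as in con-in vitro. This order rests on the TMM factors, and by library totals it holds for Trim39 and Trim65 only.

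Against con, 8 members rose and 4 fell in SAHA (27.3% of members, against 27% of all genes, 20.2% higher and 6.75% lower), so the members' share was close to the background. Trim31 was at 0 in con and at least 458-fold higher in SAHA (adjusted p = 0.0067 by edgeR), and Trim30d was at 0 in con and at least 185-fold higher (adjusted p = 0.014 by edgeR). Trim30a had 407 counts in SAHA, against 2 in con, a ratio of 390 after scaling with a 95% counting interval of 107 to 3232. Trim23, whose protein joins a ligase to an ARF-type GTPase domain, stood at 86.5 and 93.4 CPM in SAHA, against 12.8 and 20.8 CPM in con (log2 2.42 ± 0.53, adjusted p = 0.0148 by edgeR). Trim59, a membrane-anchored ligase, stood at 364 and 272 CPM in SAHA, against 137 and 52.4 CPM in con (log2 1.75 ± 0.50, adjusted p = 0.0331 by edgeR). The groups did not overlap for either gene. Con-in vitro held 35.6 and 22.1 CPM of Trim23 and 233 and 155 CPM of Trim59, neither of which passed in SAHA against con-in vitro. Of 10 oocyte markers, 5 were higher and 1 lower in SAHA than in con, and of 15 tested cumulus and granulosa markers, 3 were higher and none lower. Trim2 (34 counts in SAHA), Trim25 (46 counts) and Trim47 (13 counts) completed the rise from levels below the limit for named genes, Trim2 and Trim47 at 0 in con.

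Of the 4 that fell against con, Trim41 stood at 2.32 and 2.33 CPM in SAHA, against 19.1 and 16.5 CPM in con (log2 -2.93 ± 0.58). Trim44 stood at 15.9 and 12.6 CPM in SAHA, against 77.9 and 55.8 CPM in con (log2 -2.23 ± 0.51). Trim32, an NHL-domain ligase linked to muscle disease, stood at 12.5 and 33.8 CPM in SAHA, against 82.7 and 92.2 CPM in con (log2 -1.92 ± 0.58). Trim32 stood at 35.7 and 32.3 CPM in PSMPs & OE-Hdac3, 13.6 and 14.9 in in vitro PSMPs, 73.9 in in vivo PSMPs, and 27.9 and 53.6 in con-in vitro, so that it was highest in con and in vivo PSMPs. Trim26 stood at 4.98 and 4.44 CPM in SAHA, against 14.6 and 27.7 CPM in con (log2 -2.16 ± 0.68). Trim41, Trim44 and Trim26 were thus below both controls in SAHA, while Trim39, Trim24 and Trim71 were below con-in vitro and did not pass against con. The median log2 fold change was -0.42 over the members and 0.59 over all genes. No call was left without either SAHA library, and the count was 6 without either in vitro PSMPs library and 7 without either PSMPs & OE-Hdac3 library. With only the groups compared in the fit it was 4, of which Trim23 and Trim31 were among the 12.

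Overexpression of Hdac3 in exposed oocytes was compared first with in vitro PSMPs, and 1 member rose and 2 fell (6.82% of members, against 4.83% of all genes, 1.85% higher and 2.98% lower). Trim41 stood at 36.2 and 34.4 CPM in PSMPs & OE-Hdac3, against 4.30 and 2.75 CPM in in vitro PSMPs (log2 3.32 ± 0.59, adjusted p = 0.0181 by edgeR). Trim59 stood at 26.3 and 31.7 CPM, against 153 and 248 CPM in in vitro PSMPs (log2 -2.79 ± 0.52, adjusted p = 0.0214 by edgeR). Trim23 stood at 7.03 and 10.0 CPM, against 44.3 and 51.6 CPM in in vitro PSMPs (log2 -2.49 ± 0.53, adjusted p = 0.0328 by edgeR). The libraries did not overlap for any of these. Of the 10 oocyte markers, 3 were lower in PSMPs & OE-Hdac3 and none higher. Trim61 did not pass, at 1145 and 1091 CPM in PSMPs & OE-Hdac3, against 2158 and 3672 CPM in in vitro PSMPs (log2 -1.38 ± 0.35, adjusted p = 0.0596 by edgeR). Trim31 and Trim30a did not pass, with 1.17 and 1.73 CPM against 10.2 and 10.3 CPM for Trim31 (log2 -2.82 ± 1.03, adjusted p = 0.19 by edgeR) and 1.24 and 2.55 CPM against 10.3 and 13.3 CPM for Trim30a (log2 -2.64 ± 1.20, adjusted p = 0.278 by edgeR). The median log2 fold change was 0.71 over the members and 0.09 over all genes. All 3 calls were lost without any 1 of the PSMPs & OE-Hdac3, in vitro PSMPs or SAHA libraries, and the count was 10 without either con library and 21 with only the groups compared in the fit. Library totals gave 2 higher and 1 lower, with the call of Trim23 lost (log2 -1.98).

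Against in vivo PSMPs, no member passed by edgeR, as no gene did among 16736 (0% of all genes), with 4 members at an unadjusted p under 0.05 and 2 members called by DESeq2's Wald test. The count was 1 without either con library 2 with the in vivo PSMPs columns as 2 libraries and 17 with only the groups compared in the fit. Trim59 and Trim23 lay close in the 2 groups, at 26.3 and 31.7 CPM in PSMPs & OE-Hdac3 against 24.9 CPM in in vivo PSMPs for Trim59, and 7.03 and 10.0 CPM against 4.79 CPM for Trim23. Trim41 stood at 36.2 and 34.4 CPM, against 28.2 CPM in in vivo PSMPs (log2 0.32 ± 0.66). The median log2 fold change was 0.26 over the members and 0.23 over all genes.

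**Figure D5:**
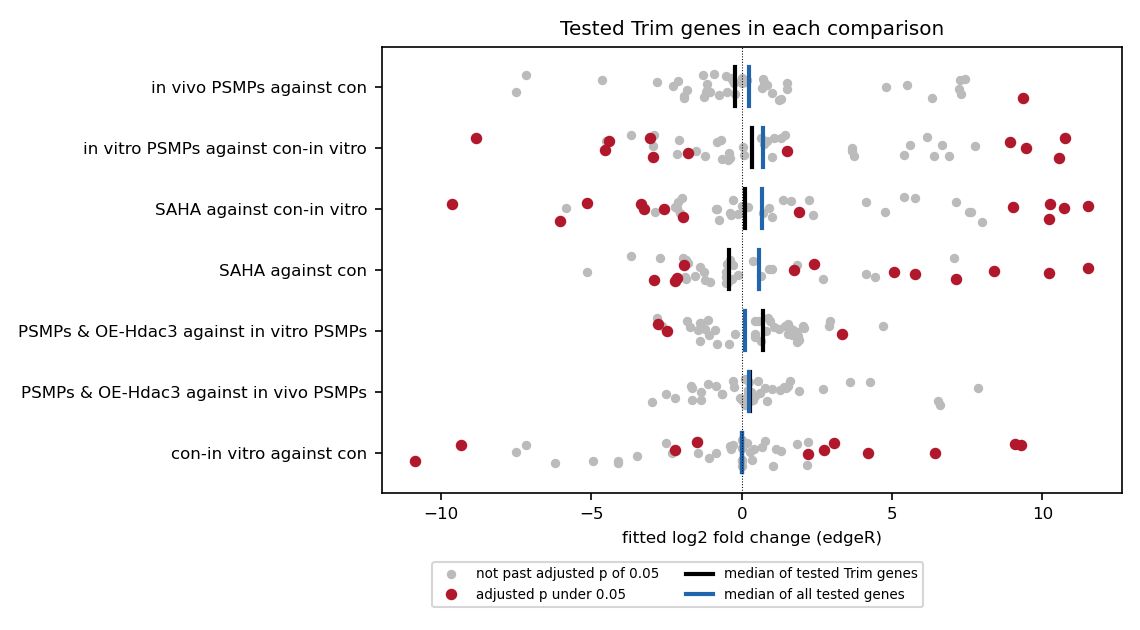
Fitted log2 fold changes of the 44 tested Trim genes in each comparison, 1 point per gene, red where the adjusted p was under 0.05, with the medians of the tested Trim genes (black) and of all tested genes (blue). Points far from 0 belong mostly to genes at 0 in 1 group, whose fitted value depends on the prior count. The comparison of in vivo PSMPs with con has 1 red point and that of PSMPs & OE-Hdac3 with in vivo PSMPs has none.

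Since con-in vitro enters several of these comparisons, the controls were also compared with each other. In con-in vitro, 7 members were higher and 4 lower than in con (25% of members, against 25.1% of all genes, 14.7% higher and 10.5% lower), a share close to the background. Trim39 (202 and 180 CPM in con-in vitro, against 5.84 and 14.9 CPM in con), Trim65 (74.2 and 116, against 0.347 and 0 CPM), Trim24 (295 and 262, against 9.42 and 57.0 CPM), Trim41 (60.8 and 104, against 19.1 and 16.5 CPM) and Trim71 (204 and 318, against 8.09 and 69.6 CPM) were higher. With TMM scaling, both con-in vitro libraries were also above every library of the other groups for these 5 genes. The factors were 0.542 and 0.572 in con-in vitro and 1.57 in both PSMPs & OE-Hdac3 libraries. By library totals the order held for Trim39 and Trim65 but not for Trim24, Trim41 and Trim71. Trim24 had 994 of 6.22 M and 958 of 6.4 M counts in con-in vitro. In PSMPs & OE-Hdac3 it had 1852 of 9.81 M and 1213 of 7.03 M. Trim39 stood at 26.5 and 24.9 CPM in PSMPs & OE-Hdac3 and 17.0 CPM in in vivo PSMPs, and Trim65 at 2.28 and 0.909 CPM and at 0. Trim24 stood at 121 and 110 CPM in PSMPs & OE-Hdac3 and 93.9 CPM in in vivo PSMPs, and Trim71 at 96.9 and 73.9 CPM and at 42.6 CPM. With TMM scaling these groups thus lay between the con-in vitro and the SAHA libraries for Trim39, Trim24 and Trim71. By library totals this held for Trim39 only. There PSMPs & OE-Hdac3 was above con-in vitro for Trim24 and overlapped it for Trim71. Trim43c and Trim80, outside the rule for named genes, were called on 29 and 4 counts that lay in 1 con-in vitro library.

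Lower in con-in vitro were Trim61 (log2 -2.22 ± 0.36, adjusted p = 0.0031 by edgeR), Trim13 (log2 -1.48 ± 0.44, adjusted p = 0.0375 by edgeR), Trim3 and Trim38. Trim3 was at 0 in con-in vitro and at least 29.8-fold lower than in con, and Trim38 at least 10.4-fold lower. The lower sum of oocyte markers in con-in vitro, given above, moves with this group (5 of 10 markers lower than in con, none higher), and its part in the levels of Trim61 and Trim13 was not tested. Trim24, Trim3, Trim61, Trim65 and Trim39 passed whichever library was left out. The count was 7 without either in vitro PSMPs library, 6 without any 1 of the SAHA or PSMPs & OE-Hdac3 libraries and 17 without con replicate 2. Scaled by library totals, 3 members were higher and 9 lower, with the calls of Trim24 (log2 2.13), Trim71 (1.81) and Trim41 (1.37) and of Trim80 lost, while the median over all genes moved to -0.49, against 0 with TMM factors, as did that over the members (-0.51, against 0).

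The effect of exposure in culture was then set against the effect in the animal in 1 test. The effects differed for 5 of 44 members (11.4%, against 11.3% of all genes, with 4.87% more positive and 6.4% more negative), more positive in culture for Trim61 and Trim38 and more negative for Trim41, Trim39 and Trim24. For Trim41 the log2 effect was -4.55 ± 0.62 in culture and 0.67 ± 0.64 in the animal, a difference of -5.22 ± 0.85 (adjusted p = 0.00698 by edgeR). For Trim61 it was 1.5 ± 0.35 in culture and -1.25 ± 0.45 in the animal, a difference of 2.75 ± 0.57 (adjusted p = 0.0187 by edgeR). These differences include the difference between the controls, since Trim61 was 2158 and 3672 CPM in in vitro PSMPs, against 1080 and 980 CPM in con-in vitro, while in vivo PSMPs had 2025 CPM, against 5950 and 3667 CPM in con. Trim41 passed whichever column was left out. The in vivo PSMPs sample itself was never left out, since 1 of its columns always remained. With only the groups compared in the fit, the call of Trim41 was lost. The count was 3 without in vitro PSMPs replicate 1 or either SAHA library, 1 without in vitro PSMPs replicate 2, 2 without either PSMPs & OE-Hdac3 library, 8 without con-in vitro replicate 1, and 10 and 12 without con replicates 1 and 2. Library totals gave 6 more positive and 2 more negative effects in culture.

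By C-terminal domain, the calls were spread over the family, and the shares of all genes called were 15.4% in in vitro PSMPs and 19.8% in SAHA against con-in vitro, and 27% in SAHA against con. Of the 35 members with an SPRY domain, 23 were tested, and 2 rose and 3 fell in in vitro PSMPs, while 3 rose and 4 fell in SAHA against con-in vitro. All 4 NHL-domain members were tested, of which Trim3 rose and Trim71 fell in both of these comparisons, and Trim2 rose and Trim32 fell in SAHA against con. Of the PHD-bromodomain members, Trim24 fell in both comparisons with con-in vitro and Trim33, a regulator of SMAD4, passed in none. Of 8 COS-box members, which bind microtubules, 3 were tested and none passed. Trim36, one of the tested, stood at 20.6 and 22.8 CPM in PSMPs & OE-Hdac3, 46.7 and 64.8 in SAHA, 43.1 and 56.9 in in vitro PSMPs, 55.7 in in vivo PSMPs, 53.1 and 83.9 in con-in vitro, and 29.8 and 25.7 in con. Trim23 and Trim59, of the members with other C-terminal domains, both rose in SAHA against con and fell in PSMPs & OE-Hdac3 against in vitro PSMPs. Of 6 members without a defined C-terminal domain, 4 were tested, and Trim31 and Trim61 rose in both comparisons with con-in vitro. Of 4 members without RING finger, 2 were tested, and Trim44 fell in both of these and in SAHA against con.

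The control libraries held members with counts in 1 replicate and none in the other. Members with at least 20 counts in 1 library and none in the other numbered 6 in con (Trim12c, Trim29, Trim45, Trim50, Trim66 and Trim67) and 3 in con-in vitro (Trim6, Trim12c and Trim43c), and 0 in the groups PSMPs & OE-Hdac3, SAHA and in vitro PSMPs. Of the 44 tested members these were 11.4% in con and 6.82% in con-in vitro, close to the 12.4% and 5.84% of all genes tested, against 0.0239% to 0.161% of all genes in those other 3 groups. Trim66, a PHD-bromodomain member, had 122 counts in con replicate 1 and 0 in con replicate 2. Trim6 stood at 0 and 21.0 CPM in con-in vitro and at 18.5 and 0.232 CPM in con, so its groups overlapped and it passed in no comparison. The median absolute log2 difference between replicates was 0.86 over the tested members in con, against 0.55 over all genes there, and 0.26 to 0.43 over the members in the other groups with 2 libraries, against 0.23 to 0.59 over all genes.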

How the data were processed

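Counts of reads per gene, raw whole numbers, were deposited by the authors for 12 RNA columns in 6 groups. Per the labels' protocols, 5 oocytes went into each library, through full-length amplification of cDNA and tagmentation by transposase. Per the submitters' processing notes, HISAT2, Bowtie2 2.2.5, fastp 0.12.4, SAMtools, featureCounts, deepTools 3.5.1, Picard and DESeq2 were used with build mm10. The role of each, the annotation, and the use of strand and of multiply mapped reads are not given in the sources used here. CUT&Tag libraries of the series were not analysed here.

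Versions were DESeq2 1.42.0, edgeR 4.0.16, limma 3.58.1 and R 4.3.3. The expression filter of edgeR was applied (minimum count 10) to the 12 columns and left 16736 genes. The in vivo PSMPs columns (chi-square per degree of freedom 0.444, while the other groups had 16.5 to 384) were merged as their rounded mean. With TMM scaling, 1 quasi-likelihood model with a coefficient per group was fitted to 11 libraries (5 residual degrees of freedom, biological coefficient of variation 71.9%). Contrasts were tested by edgeR's quasi-likelihood F test, Benjamini-Hochberg adjusted over all genes, with a threshold of 0.05. Standard errors were derived from the log2 fold and its F. Absence of overlap between libraries was noted for members only, with no share over all genes, and adds nothing to the test. CPM are TMM-scaled. A gene at 0 in a group has its fold bounded against 3 counts over the group (0.0444 CPM in con to 0.427 CPM in con-in vitro), and a gene with 1 to 3 counts has a ratio with a 95% Poisson interval.

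Named members were those called in any comparison whose highest group mean reached 5 CPM, and the 10 highest per kilobase, with exon length from the deposited file. Others, such as Trim2, Trim6, Trim25, Trim36, Trim43c, Trim47, Trim66 and Trim80, were named after their values were seen. Members, domain classes and gene lists were chosen with earlier results of these data known. Alternatives were a minimum count of 50, no filter, DESeq2 size factors, library totals, the in vivo PSMPs columns as 2 libraries, a replicate block, DESeq2's Wald test, only the groups compared in the fit, and each column left out. The procedure was also run on simulated counts, whose outcome is not given here and adds nothing to any call. Upstream windows came from RefSeq (GRCm38.p6). A gene of the lists is not reported here.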

Additional observations from a re-analysis of the deposited data

Results flagged for a closer look

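The effect of PSMPs in culture differed from the effect in the animal for 5 members by the test of the difference itself (edgeR's quasi-likelihood F test). This was 11.4% of the 44 tested members, against 11.3% of all genes, a share close to the background. The differences include the difference between the controls. The log2 differences, effect in culture minus effect in the animal, were -5.22 for Trim41 (adjusted p = 0.00698), -5.13 for Trim39 (adjusted p = 0.0173), -4.43 for Trim24 (adjusted p = 0.0303) and 2.75 for Trim61 (adjusted p = 0.0187). For Trim38 the fitted difference was 12.29 (adjusted p = 0.0376), a value that depends on the prior count because Trim38 was at 0 in con-in vitro, and is no estimate of size. In the animal none of the 5 passed on its own (adjusted p from 0.108 for Trim61 to 0.644 for Trim39), and the group there is 1 sample. All 5 calls were lost with only the groups of the comparison in the fit.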

How the results depend on the processing

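Counts below are of members called by each comparison, and no call changed direction under any alternative. For exposure in the animal, the count of 1 became 2 without a filter and with library totals, 13 with the in vivo PSMPs columns as 2 libraries, 9 with DESeq2's Wald test, and 0 with only the groups compared in the fit. Over all genes the count of 817 moved as well, to 1377 without a filter, 4180 with 2 libraries, 2693 with DESeq2 and 0 with only the groups compared. For PSMPs & OE-Hdac3 against in vitro PSMPs, 3 became 5 with 2 in vivo PSMPs libraries, 10 with DESeq2 and 21 with only the groups compared, while 808 over all genes became 1489, 2576 and 5491. Against in vivo PSMPs, 0 became 2, 2 and 17 under the same alternatives, and 0 over all genes became 1355, 849 and 7215. With only the groups compared, 12 became 4 for SAHA against con (1450 over all genes, against 4511), and 11 became 3 for con-in vitro against con (836, against 4205). For the difference between the effects of exposure, 5 became 8 with library totals, 12 with 2 in vivo PSMPs libraries, 12 with DESeq2 and 0 with only the groups compared. Over all genes, 1886 became 4013 with 2 in vivo PSMPs libraries, 4110 with DESeq2 and 245 with only the groups compared. The cause of these moves was not tested. Of 56 calls, 12 were lost with library totals, 6 without a filter and 24 of 53 with only the groups compared, among them Trim44 in in vitro PSMPs under each of these and Trim26 in SAHA against con-in vitro under the first 2. The median over the members turned negative for in vitro PSMPs (-0.45) and SAHA (-0.48) against con-in vitro at a minimum count of 50 (-0.24 and -0.23 with only the groups compared), and positive (0.14) for exposure in the animal with only the groups compared.

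With the replicate block, in which the in vivo PSMPs columns are 2 libraries, the count was 12 for in vivo PSMPs against con and 11 for the difference, and it was within 1.5 times the main count elsewhere. Over all genes the block gave 3349 for in vivo PSMPs against con and 3204 for the difference. The labels' replicate numbers did not pair the samples, since deviations of same-numbered libraries correlated between -0.20 and 0.04 over 15 pairs of groups, with 0 over 0.1.

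With each column left out in turn, the counts ranged from 0 to 11 for in vivo PSMPs against con, 2 to 16 for exposure in culture, 3 to 21 for SAHA against con-in vitro and 0 to 18 for SAHA against con. They ranged from 0 to 10 for PSMPs & OE-Hdac3 against in vitro PSMPs, 0 to 1 against in vivo PSMPs, 6 to 17 for con-in vitro against con and 1 to 12 for the difference. These counts, here and under each comparison above, are of members only. The share over all genes with a column left out is not given, so the moves are no result particular to the members. Where a group was left with 1 library, it was given the spread of the others. With either in vivo PSMPs column left out the other remained, so that sample was never left out. In con-in vitro, the shallowest group, 3 counts equal 0.890 and 0.820 CPM in its 2 libraries, so a count of 0 there allows up to that level.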

Other observations

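Among ubiquitin-activating and ubiquitin-conjugating enzymes that work with Trim ligases, 11 of 12 were tested. In SAHA and in in vitro PSMPs, each against con-in vitro, whose libraries these comparisons share, 2 rose and 1 fell (19.8% and 15.4% of all genes called). The 2 that rose, Ube2d3 and Ube2v2, were the same in each, while the 1 that fell was not. Ube2d3, an abundant partner of RING ligases, stood at 3629 and 4663 CPM in SAHA and 2519 and 2992 CPM in in vitro PSMPs, against 1055 and 828 CPM in con-in vitro. Con held 2825 and 1865 CPM of Ube2d3. The test between the controls put con-in vitro below con (log2 -1.32 ± 0.33, adjusted p = 0.0219 by edgeR). In SAHA against con, Ube2d3 did not pass (log2 0.82 ± 0.33, adjusted p = 0.0949 by edgeR). Ube2d3 was 513 and 715 CPM in PSMPs & OE-Hdac3. There it fell against in vitro PSMPs (log2 -2.17 ± 0.34, adjusted p = 0.0143 by edgeR). Ube2v2, the Ube2n cofactor in chains linked through lysine 63, stood at 9.96 and 6.82 CPM in SAHA and 3.97 and 5.65 CPM in in vitro PSMPs, against 0 in all 4 control libraries.

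Of 21 genes of the RNA and DNA sensing pathway that Trim ligases regulate, 16 were tested. None rose and 1 fell in in vitro PSMPs against con-in vitro, and none passed in SAHA against con-in vitro, where 15.4% and 19.8% of all genes were called. The gene that fell was the DNA sensor Cgas, at 33.9 and 46.6 CPM in in vitro PSMPs, against 109 and 111 CPM in con-in vitro (log2 -1.45 ± 0.39, adjusted p = 0.0369 by edgeR). The other control, con, held 25.8 and 28.7 CPM of Cgas, below in vitro PSMPs, and Cgas was called higher in con-in vitro than in con. Against con, Ikbke, at 0 in con, rose in SAHA, and Nfkb1, Rela and Traf3 fell. The interferon-induced genes Ifih1 and Irf7 were at 0 in every library. Among 3 tested relatives of the family under other names, only Pml rose in SAHA and in in vivo PSMPs against con. Its level was 1.02 and 2.16 CPM in SAHA and 5.93 CPM in in vivo PSMPs, against 0 in con. These comparisons called 27% and 4.88% of all genes. Con-in vitro held 8.01 and 13.4 CPM of Pml, above SAHA and in vivo PSMPs, and was also called higher than con. PSMPs & OE-Hdac3 held 8.13 and 6.09 CPM.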
